A study of Homo sapiens with 4 samples.

Results

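The replication-dependent histone genes are the mostly intron-free genes of the H1, H2A, H2B, H3 and H4 families that are transcribed mainly while DNA is copied. They were chosen by symbol (H1-1 to H1-5, H2AC, H2BC, H3C and H4C genes, or their older HIST1 to HIST4 names), with pseudogenes left out, and not by any measured value. They made up 61 of 30148 rows in the UMUC3 table and 65 of 17752 rows in the SW780 table, and 61 were in both. RNA sequencing had been done on 2 human bladder cancer cell lines, UMUC3 grown in MEM and SW780 grown in DMEM, both with fetal bovine serum and antibiotics. In each line 1 library came from cells with the control hairpin shNT, whose genotype the labels give as WT, and 1 from cells with a lentiviral knockdown of SCD1 (shSCD1), an enzyme that puts a double bond into saturated fatty acids. How many cultures or hairpins stand behind a library, and whether poly(A) selection or ribosomal RNA depletion was used with the TruSeq kit, is not given in the sources used here. With 1 library per group no difference has a replicate check, and the intervals given are exact 95% Clopper-Pearson intervals that cover counting error only. The files name their libraries only as first and second. The second was read as shSCD1, because each table is named for shSCD1 and gives the second over the first, and every direction would turn round otherwise. The sample descriptions also number shNT before shSCD1. SCD, the targeted gene, was lower in the second library of both lines, with values given below.

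Cells need a large supply of core histones (H2A, H2B, H3, H4) and linker histone (H1) when DNA is replicated, to package the new copy. The mRNAs of these genes are unusual: they end in a conserved stem-loop, bound by the protein SLBP, in place of a poly(A) tail, and they are made and broken down with the start and end of S phase. Their genes lie in clusters and are activated through NPAT, a substrate of cyclin E and CDK2. When such a transcript carries a poly(A) tail, it has as a rule been read past the stem-loop to a polyadenylation site further on.

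The stem-loop is the letters these mRNAs share, so it is shown here for the members that the results below turn on, with 7 bases of the transcript on each side where present. The stem-loop is in capitals, and the sequences, written 5′ to 3′ as DNA, come from the GENCODE 29 transcripts.
H2AC6: acccaaaGGCTCTTTTCAGAGCCcccctac
H2BC5: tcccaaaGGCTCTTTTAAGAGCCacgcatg
H3C6: atccaaaGGCTCTTCTCAGAGCCaacca
H4C14: tcccaaaGGCCCTTTTTAGGGCCgaccact
H4C16: tccaaaaGGCCCTTTTCAGGGCCcccaaac
H2AC11: aaccaacGGCTCTTTTCAGGGCCacccacg
The pattern searched was GG, any 3 bases, TTNTNA, any 3 bases and CC, with the 6 outer bases on each side able to pair. It was found with 6 pairs in the models of 31 of 65 members and with 5 pairs in H2AC11. The other 33 members had no match, and 29 of them have a model of coding length only, which stops before a stem-loop could be seen. The form of H2AC6 was shared by 17 members of H2A, H2B and H3, that of H2BC5 by 5 members, and the 2 forms with GGCCC arms were found in H4 genes only (8 members). Within the last 100 bases of a transcript the pattern stood in 12 of 65 members (18.5%), against 3 of 19619 other protein-coding genes (0.0153%).

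The tables held 22818368 (UMUC3 shNT), 32540576 (UMUC3 shSCD1), 34087871 (SW780 shNT) and 25549737 reads (SW780 shSCD1), recovered from the deposited values. Levels below are counts per 1000000 of these reads (CPM). SCD, the targeted gene, had 6033 reads in shNT and 1938 in shSCD1 of UMUC3, a fold of 0.225, and 20178 and 2353 reads in SW780, a fold of 0.156. Both lines carried the keratin KRT18 (8479 and 5520 reads in UMUC3, 52504 and 31811 in SW780), while KRT19 had 0 reads in both UMUC3 libraries against 80889 and 41327 in SW780. In UMUC3 the summed level of 9 urothelial and epithelial markers, of which 6 had a row, was 527 CPM in shNT and 251 CPM in shSCD1, and that of 6 fibroblast markers, 5 with a row and LUM at 0, was 3.16 and 1.11 CPM. In SW780 the same lists gave 11839 and 9828 CPM, and 178 and 250 CPM, with COL1A2, DCN and PDGFRB at 0. Endothelial and blood cell lists were at most 67.0 CPM in any library, and at that level all of it was CD68. The part of these markers in the histone values was not tested.

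Histone mRNA made up a very small share of every library, and it was smaller in the shSCD1 library of both lines. In UMUC3 the members had 3099 reads in shNT and 2117 in shSCD1, or 0.0136% and 0.00651% of the reads of the table. Their summed level was 136 CPM in shNT and 65.1 CPM in shSCD1, a fold of 0.479 (0.453 to 0.506), or 2.09 times lower. In SW780 they had 1244 reads in shNT and 638 in shSCD1, or 0.00365% and 0.00250% of the reads. The summed level was 36.5 and 25.0 CPM, a fold of 0.684 (0.621 to 0.753), or 1.46 times lower. Both shSCD1 libraries thus lay below their control by more than counting error. As bulk values these cannot tell apart fewer cells in S phase, less histone RNA per cell and a difference in RNA capture. Each table was scaled on its own, so the UMUC3 and SW780 levels are set side by side only.

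In UMUC3 the levels summed over a family were lower in shSCD1 in each of the 5 families. The linker histones had 15.3 and 5.72 CPM, a fold of 0.375 (0.312 to 0.449), and H2A had 49.2 and 21.2 CPM, a fold of 0.432 (0.392 to 0.475). H2B had 43.7 and 21.6 CPM, a fold of 0.493 (0.447 to 0.544). H4 gave 16.5 and 9.40 CPM, a fold of 0.571 (0.489 to 0.665), and H3 gave 11.2 and 7.13 CPM, a fold of 0.638 (0.532 to 0.765). These folds rest in part on single genes, so the order of the families is not a general one. Without H2AC6 the other 14 H2A rows had 15.7 and 12.9 CPM, a fold of 0.820 (0.711 to 0.947), above those of H3 and H4. Without H1-2 the other 3 H1 rows had 27 and 5 reads, a fold of 0.130 (0.0391 to 0.342). H3 without H3C6 had a fold of 0.783 (0.618 to 0.993), and without their member with the most reads H2B (0.477) and H4 (0.591) stayed within the intervals above. In SW780 the order was another. H4 was lowest, with 8.77 and 4.03 CPM and a fold of 0.460 (0.364 to 0.577), and H1 showed 3.75 and 3.56 CPM, a fold of 0.949 whose interval holds 1 (0.717 to 1.25). H2A (9.65 and 6.54 CPM, fold 0.677), H3 (3.14 and 2.19 CPM, fold 0.698) and H2B (11.2 and 8.65 CPM, fold 0.774) lay between them, each with an interval below 1. Without H3C6 the SW780 interval of H3 holds 1 (fold 0.604, 0.332 to 1.06).

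**Figure D1:**
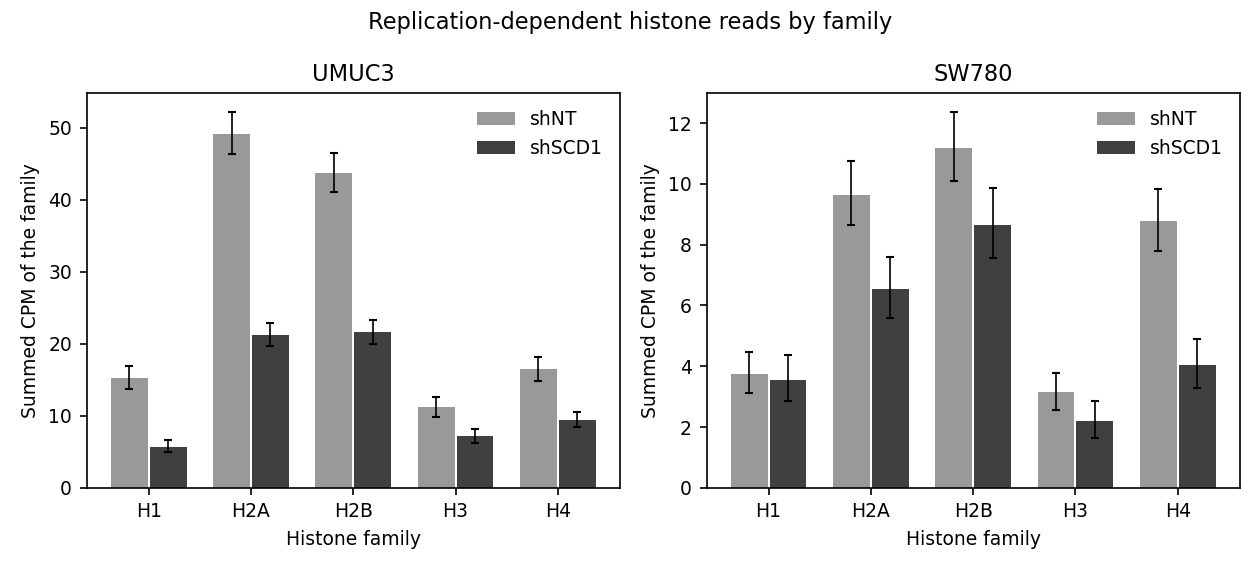
Summed level of each histone family (CPM, linear axis from 0) in the shNT (light) and shSCD1 (dark) library of UMUC3 (left) and SW780 (right), on axes of their own; error bars are exact 95% Poisson intervals of the read sum and cover counting error only. In UMUC3 all 5 dark bars lie below the light ones with no overlap of the error bars, while in SW780 the error bars of H1 and of H3 overlap.

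Of the 61 UMUC3 members 42 had 10 or more reads summed over the 2 libraries, 19 had fewer, and 2 (H2BC10 and H4C1) had none. Of the 42, 38 had a fold below 1, where 45.4% of the 17897 genes with 10 or more reads did, and 4 had one above 1 (54.6%). The interval lay wholly below 1 in 22 of them (25.1% of all genes) and wholly above 1 in 0 (30.5%). The median fold of the 42 was 0.517, beside 1.04 over all such genes. A fold of 2 or more on the log2 ratio of CPM + 1, among genes with a mean of at least 1 CPM, is called higher or lower. By this rule 22 members could be judged, 4 were called lower (H2AC6, H1-2, H2BC5 and H2BC9; 2.06% of 13563 genes) and 0 higher (2.39%). The median log2 ratio of the 22 was -0.62, beside 0.04 over all genes.

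In SW780 24 of 65 members had 10 or more reads, 41 had fewer and 10 had none. Of the 24, 21 had a fold below 1 (50.8% of 14487 genes) and 3 above 1 (49.2%). The interval lay below 1 in 7 (27.2%) and above 1 in 0 (26%). Their median fold was 0.694, beside 0.996 over all such genes. Of the 10 members with a mean of at least 1 CPM, 0 were called lower (1.03% of 12701 genes) and 0 higher (1.47%), at a median log2 ratio of -0.53 beside -0.01 over all genes. Reads were concentrated in few genes in both lines, since the top 8 members held 60.9% of the members' reads in UMUC3 and 64.5% in SW780, while the median member had 26 and 6 reads. Nearest to the line of 10 reads were H3C14 with 9 and H2AC16 and H3C3 with 10 in UMUC3. In SW780 these were H1-4, H2AC17, H2BC14 and H2BC18 with 9, and H3C8 and H4C12 with 10.

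**Figure D2:**
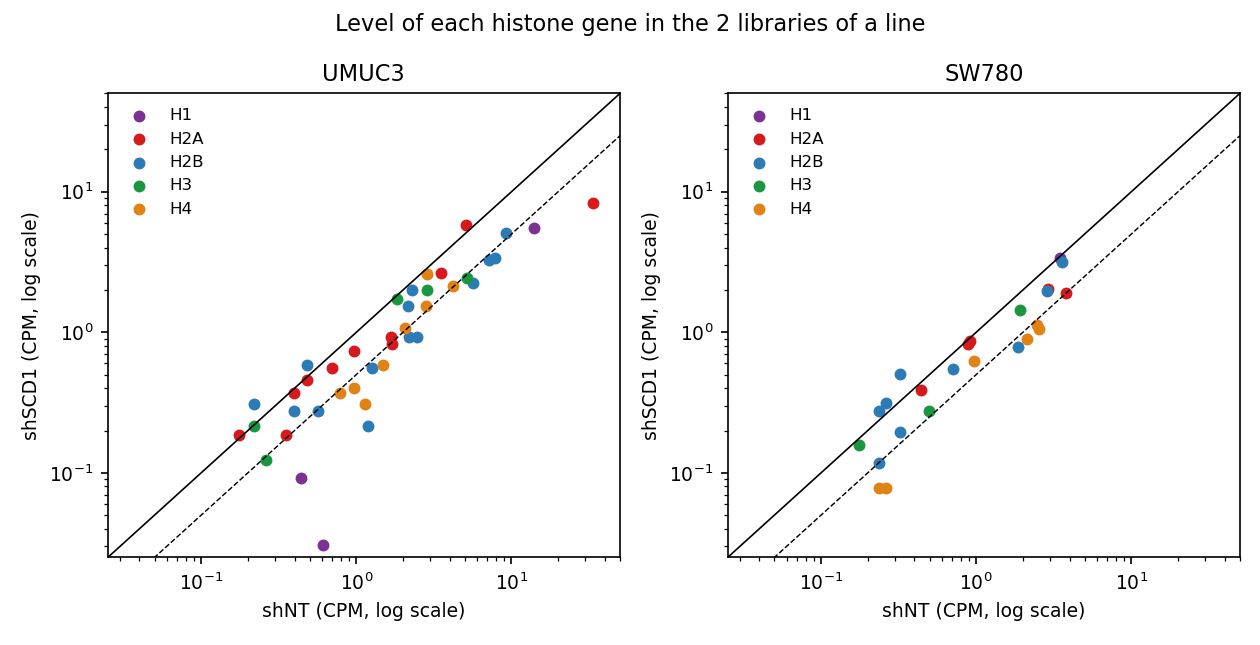
Level of each member with 10 or more reads in the shNT (x) and shSCD1 (y) library of a line, in CPM on log axes, coloured by family; the solid line marks equal levels and the dashed line a fold of 0.5. Most UMUC3 points lie near or below the dashed line, and the isolated red point at the upper right is H2AC6 (33.4 and 8.33 CPM); H2BC17, with 0 reads in shSCD1, cannot be drawn on a log axis.

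Among the linker histones, which bind the DNA that enters and leaves the nucleosome, reads were almost all from H1-2 (chr6:26055787-26056428). H1-2 had 321 reads (14.1 CPM) in UMUC3 shNT and 181 (5.56 CPM) in shSCD1, a fold of 0.395 (0.328 to 0.476). In SW780 it had 119 reads (3.49 CPM) and 86 (3.37 CPM), a fold of 0.964 (0.722 to 1.28). The gene was thus called lower in UMUC3 and did not differ beyond counting error in SW780. H1-3 had 14 reads and 1 read in UMUC3 and H1-4 had 10 and 3. Both intervals lay below 1 (0.00118 to 0.329 and 0.0372 to 0.817), on very few reads.

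H2A pairs with H2B to form the dimers that flank the histone core, and H2AC6 (chr6:26124145-26139116) was the member with the most reads of all in UMUC3. It had 763 reads (33.4 CPM) in shNT and 271 (8.33 CPM) in shSCD1, a fold of 0.249 (0.216 to 0.286), the lowest among the 14 UMUC3 members with 100 or more reads. In SW780 it had 130 reads (3.81 CPM) and 49 (1.92 CPM), a fold of 0.503 (0.354 to 0.704). The other members held 75.4% of the UMUC3 shNT member reads, and without H2AC6 the summed UMUC3 fold was 0.554 (0.521 to 0.589). H2AC11 was the exception among the abundant members, with 117 reads (5.13 CPM) in UMUC3 shNT and 189 (5.81 CPM) in shSCD1, a fold of 1.13 (0.895 to 1.44). Its SW780 reads were 4 and 2. H2AC25, whose row is named H2AW, had 80 and 86 reads in UMUC3, a fold of 0.754 (0.549 to 1.04), and 99 and 52 in SW780, a fold of 0.701 (0.491 to 0.990). H2AC18 and H2AC19 are near-identical copies that share at least 97.1% of their 50-base stretches with other transcripts, so they are best read together. Their summed reads were 77 and 57 in UMUC3, a fold of 0.519 (0.362 to 0.741), and 61 and 43 in SW780, a fold of 0.940 (0.621 to 1.41).

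H2B had the most members with 10 or more reads, 15 of 17 in UMUC3 and 9 of 18 in SW780. In UMUC3 13 of these 15 had a fold below 1, and in 9 the interval lay below 1. H2BC5 (chr6:26158146-26171349) had 179 reads (7.84 CPM) in UMUC3 shNT and 110 (3.38 CPM) in shSCD1, a fold of 0.431 (0.337 to 0.549). In SW780 it had 63 reads (1.85 CPM) and 20 (0.783 CPM), a fold of 0.424 (0.243 to 0.710), so the values of the 2 lines were close. H2BC21 (chr1:149884459-149886652) had 164 and 107 reads in UMUC3, a fold of 0.458 (0.355 to 0.587), and 97 and 50 in SW780, a fold of 0.688 (0.479 to 0.977). H2BC9 had 128 and 73 reads in UMUC3, a fold of 0.400 (0.296 to 0.537), but only 8 and 7 in SW780. H2BC12 had 209 and 165 reads in UMUC3, a fold of 0.554 (0.449 to 0.682), and 122 and 81 in SW780, a fold of 0.886 (0.660 to 1.18). Of its 50-base stretches 74.1% also occur in other transcripts, so its count is uncertain. H2BC15 had 52 and 65 reads in UMUC3, a fold of 0.877 (0.599 to 1.29). H2BC17 had 13 reads in UMUC3 shNT and 0 in shSCD1, 6.18 times lower when the 0 is set to a floor of 3 reads and at least 4.35 times lower by its counting interval.

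H3, which carries many of the known chromatin marks, had few reads. H3C6 (chr6:26224199-26227473) had 118 and 79 reads in UMUC3, a fold of 0.469 (0.349 to 0.630), and 65 and 37 in SW780, a fold of 0.759 (0.493 to 1.15). H3C10 had 65 reads in each UMUC3 library, which at their depths is a fold of 0.701 (0.489 to 1.00), and 17 and 7 in SW780. H3C8 had 42 and 56 reads in UMUC3, a fold of 0.935 (0.616 to 1.43), and 6 and 4 in SW780. In UMUC3 H3C6 was the 1 of the 5 H3 members with 10 or more reads whose interval lay below 1, and in SW780 0 of 3 did.

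The H4 genes were where the SW780 libraries differed most. All 6 H4 members with 10 or more reads in SW780 had a fold below 1, and in 3 the interval did not reach 1. H4C16 (chr12:14767999-14771131), a lone H4 gene outside the main clusters, had 34 and 19 reads in UMUC3, a fold of 0.392 (0.211 to 0.707), and 72 and 23 in SW780, a fold of 0.426 (0.254 to 0.690). H4C14 had 84 and 29 reads in SW780, a fold of 0.461 (0.291 to 0.710), and H4C15 had 87 and 27, a fold of 0.414 (0.258 to 0.644). In UMUC3 they had 64 and 50 reads (fold 0.548, 0.371 to 0.806) and 65 and 85 reads (fold 0.917, 0.656 to 1.29). These 2 near-identical genes share at least 97.2% of their 50-base stretches with other transcripts, and how reads were split between them is not known. Their sum was 129 and 135 reads in UMUC3, a fold of 0.734 (0.572 to 0.941), and 171 and 56 in SW780, a fold of 0.437 (0.317 to 0.594). The 2 intervals overlap only between 0.572 and 0.594. H4C9 had 96 and 70 reads in UMUC3, a fold of 0.511 (0.370 to 0.703). H4C11 and H4C12 share at least 81.2% of their 50-base stretches with other transcripts. Together they had 48 and 23 reads in UMUC3 (fold 0.336, 0.195 to 0.563) and 17 and 4 in SW780 (fold 0.314, 0.0768 to 0.962).

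**Figure D3:**
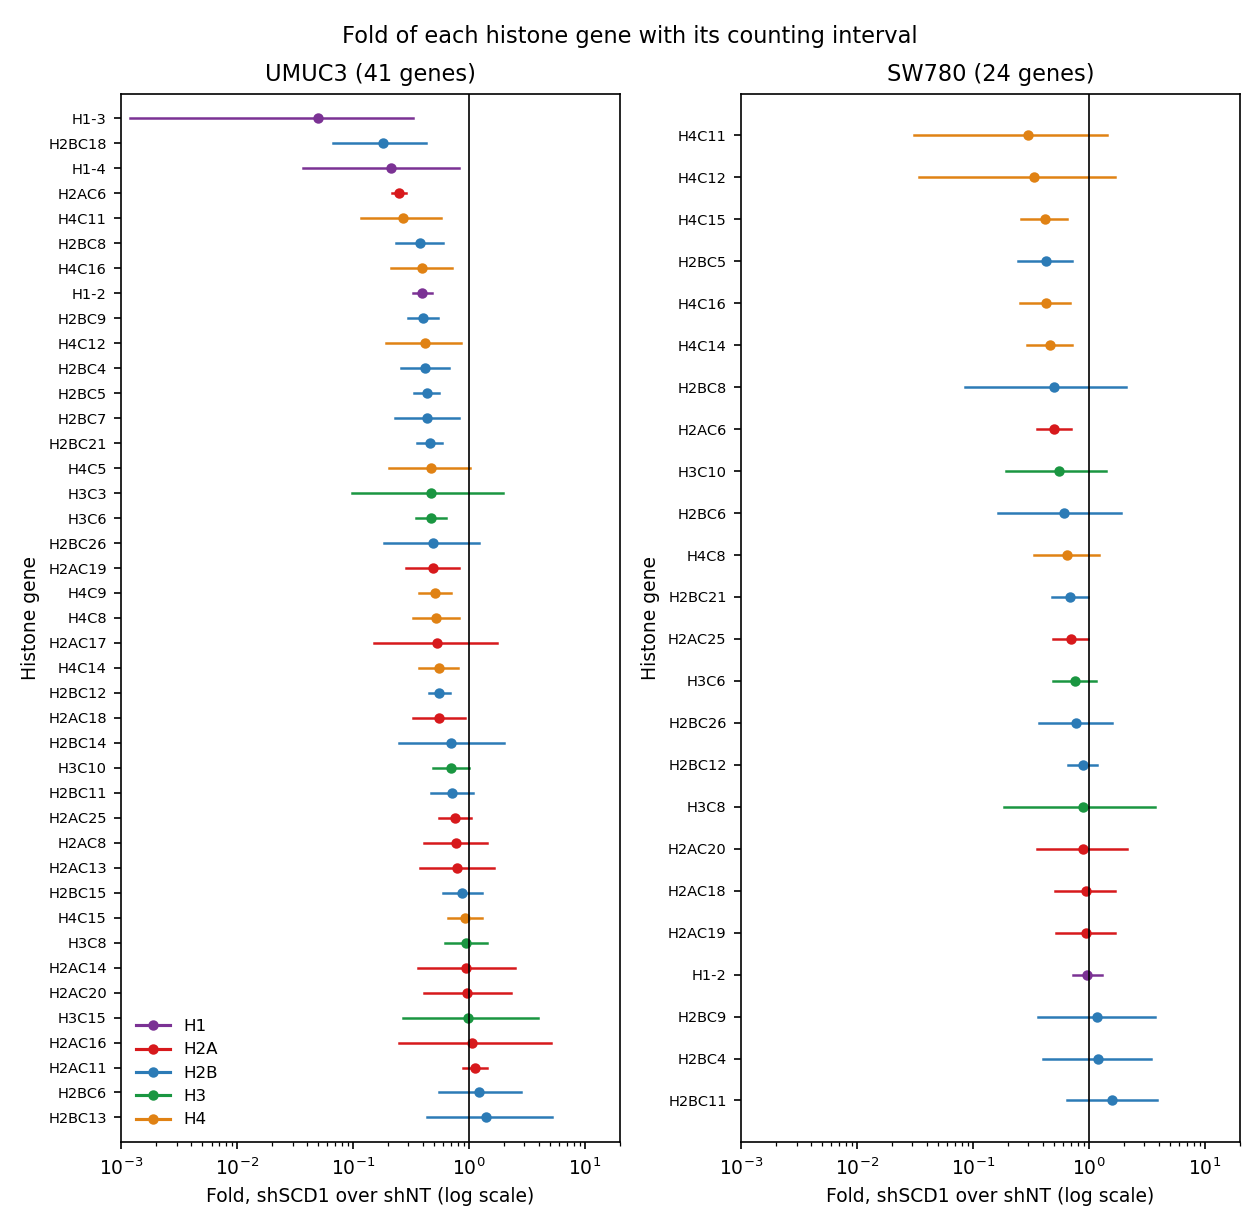
Fold of shSCD1 over shNT (log axis) of each member with 10 or more reads in UMUC3 (left, 41 genes) and SW780 (right, 24 genes), with exact 95% counting intervals, coloured by family; the vertical line marks a fold of 1. In UMUC3 22 of 42 intervals lie left of the line, counting H2BC17 (13 and 0 reads), which is not drawn; in SW780 7 of 24 do, and none lies to its right in either line.

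Per kilobase of exon, which allows genes to be compared, the highest UMUC3 mean was that of H2BC12 (24.0 CPM per kb in shNT and 13.3 in shSCD1), followed by H1-2 (21.9 and 8.66) and H2AC6 (20.05 and 4.99). Among the others were H2BC5 (9.01 and 3.88), H2AC25 (3.92 and 2.95), H4C9 (3.25 and 1.66), H4C12 (3.09 and 1.28), H4C11 (3.05 and 0.824) and H3C10 (2.30 and 1.61). In SW780 H2BC12 (9.39 and 8.32 CPM per kb) and H1-2 (5.44 and 5.24) also led, ahead of H2AC25 (3.24 and 2.27), H2AC6 (2.29 and 1.15), H2BC5 (2.12 and 0.899), H2AC19 (1.61 and 1.53), H4C14 (1.31 and 0.605), H3C6 (0.712 and 0.541) and H3C10 (0.403 and 0.221). The models of H2BC12, H1-2 and H4C12 are of coding length only, so their levels per kilobase are too high against genes whose models hold the untranslated ends.

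Of the 24 members with 10 or more reads in both lines, 20 had a fold below 1 in each, 0 had a fold above 1 in each, and 4 (H2BC4, H2BC6, H2BC9 and H2BC11) were on opposite sides. Among all 12458 genes with 10 or more reads in both lines, 25.3% were below 1 in each. The 4 that went apart had 15 to 30 reads in the line where the fold was above 1, and each such interval holds 1. The interval lay below 1 in both lines for H2AC6, H2BC5, H2BC21, H4C14 and H4C16. In a single line, 25.1% (UMUC3) and 27.2% (SW780) of all genes with 10 or more reads had such an interval. The share of all genes that had it in both lines was not computed, so these names are a list only. The 2 lines were taken as replicates, with cell line as a block, in edgeR's quasi-likelihood test on the recovered reads. At an adjusted p (Benjamini-Hochberg) of 0.05 it called 1 of 14099 genes and 0 of the 36 members tested. H2AC6 had an unadjusted p of 0.00762 and H2BC5 of 0.0393 in the same edgeR fit. These were 2 of 36 members at an unadjusted p under 0.05, beside 3.17% of all genes, and the smallest adjusted p of a member was 0.997.

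**Figure D4:**
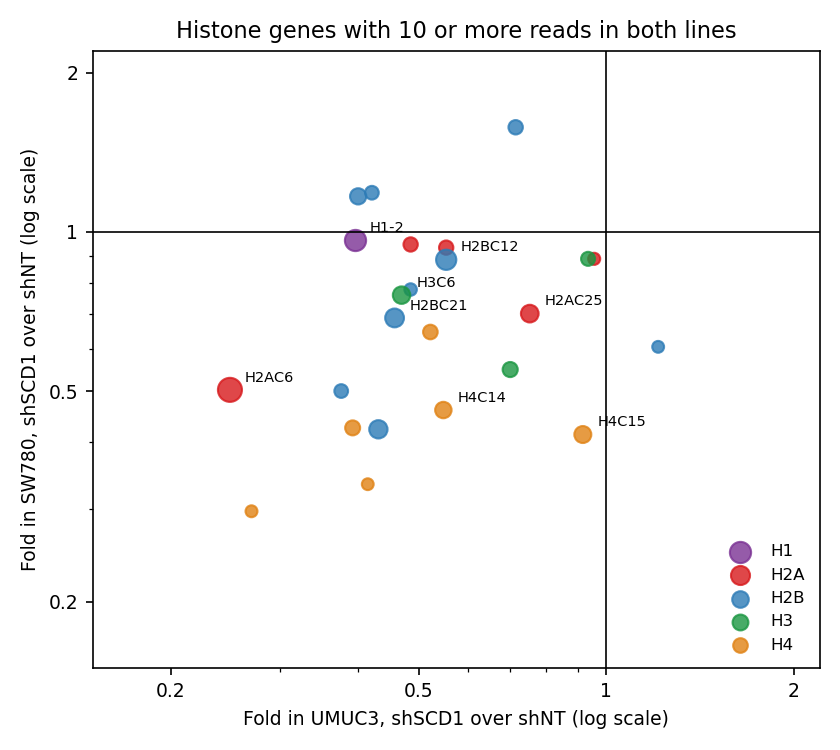
Fold of shSCD1 over shNT in UMUC3 (x) and SW780 (y), log axes, for the 24 members with 10 or more reads in both lines; point area grows with the summed reads, and members with 100 or more reads in each line are named. 20 points lie at the lower left, where both folds are below 1, and no point lies where both are above 1.

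By location, the 46 UMUC3 rows of the main cluster on chromosome 6 summed to 111 CPM in shNT and 51.3 CPM in shSCD1, a fold of 0.460 (0.432 to 0.489). The 11 rows of the HIST2 cluster on chromosome 1 gave 18.6 and 10.3 CPM, a fold of 0.554 (0.479 to 0.641), and the small HIST3 cluster on chromosome 1 gave 4.08 and 2.92 CPM, a fold of 0.716 (0.532 to 0.964). In SW780 the folds of these clusters were 0.738 (0.649 to 0.838), 0.611 (0.505 to 0.737) and 0.726 (0.532 to 0.983). All 6 intervals lay below 1, so the lower level was not limited to one cluster in either line.

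H2A and H2B genes often stand head to head and share a promoter, and 10 such pairs with starts less than 1000 bases apart were among the members. The pair with the most reads was H2AC6 and H2BC4, whose annotated starts lie 219 bases apart. H2BC4 had 50 and 30 reads in UMUC3, a fold of 0.421 (0.258 to 0.675), so both genes of the pair were lower there, while in SW780 it had 9 and 8 reads. The neighbours H2AC11 (117 and 189 reads) and H2BC11 (49 and 50 reads, fold 0.716, 0.473 to 1.08) had folds on opposite sides of 1 in UMUC3. H2AC8 had 22 and 24 reads (fold 0.765, 0.411 to 1.43) and H2BC8 56 and 30 (fold 0.376, 0.233 to 0.595). The intervals overlap in both of these pairs. The stretch between the RefSeq starts of H2AC6 and H2BC4 (GRCh38.p14, chr6:26123927-26124171, plus strand) is shown because it serves both genes of the most abundant pair. Capitals mark matches, on either strand, of the CCAAT box (CCAAT), the octamer ATTTGCAT that binds OCT1, and the TATA box (TATAAA). The stretch before the start of H4C14 (chr1:149832407-149832656, plus strand) is set beside it, because none of the 3 motifs matched there.
H2AC6 and H2BC4: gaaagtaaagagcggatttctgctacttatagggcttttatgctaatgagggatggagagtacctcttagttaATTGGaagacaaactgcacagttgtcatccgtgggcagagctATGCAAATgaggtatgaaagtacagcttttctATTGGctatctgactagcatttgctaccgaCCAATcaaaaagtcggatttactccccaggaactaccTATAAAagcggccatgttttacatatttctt
H4C14: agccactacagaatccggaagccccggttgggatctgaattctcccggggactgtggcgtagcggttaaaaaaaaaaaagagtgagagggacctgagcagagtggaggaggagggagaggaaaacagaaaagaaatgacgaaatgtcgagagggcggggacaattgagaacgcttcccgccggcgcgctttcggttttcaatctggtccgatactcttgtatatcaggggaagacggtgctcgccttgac
RefSeq promoter windows, from 250 bases before to 50 after the start, were given for 59 members. CCAAT was found in 84.7% of them, against 34.6% of 35116 RefSeq windows, and TATAAA in 66.1% against 11.5%. The octamer was found in 40.7% against 1.77%, namely in 76.5% of H2B and 66.7% of H2A windows and in 0 of the H1 and H4 windows. It was also in 1 of 12 H3 windows, but that window, given for H3C4, is the same as that of H2AC7. CCAAT was in every window of H1, H2A, H2B and H3 but in 2 of 11 H4 windows. A match is a description of these letters and does not show binding.

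Most members with 100 or more reads had gene models that run past the stem-loop. In 23 members the model runs more than 100 bases past the stem-loop, and they held 66.1% of the members' shNT reads in UMUC3 and 62.1% in SW780. The distance was taken only from models that hold the stem-loop. H2BC5 is thus counted as ending near it (39 bases), although it also has a spliced model that lacks the stem-loop and ends further downstream. Of the members with 100 or more reads, 11 of 14 in UMUC3 and 6 of 8 in SW780 were among these 23. Of those under 10 reads, 1 of 19 and 8 of 41 were, and 15 of 19 and 25 of 41 have a model of coding length only. A longer model also collects reads over more bases. Per kilobase of exon, the UMUC3 median was 1.10 CPM for models past the stem-loop and 1.81 CPM for those ending near it. Where no stem-loop was found it was 0.347 CPM. In SW780 these medians were 0.123, 0.180 and 0.0862 CPM. By the median per kilobase, models past the stem-loop were thus not the highest class. The highest single members of the 3 classes, in the same order, had 12.5, 6.44 and 18.7 CPM per kb in UMUC3. In SW780 they had 2.76, 1.57 and 8.86 CPM per kb. Where the reads fell along a model is not known, so division by its whole length may not put the classes on an equal footing. In UMUC3 the 3 classes had folds with overlapping intervals: 0.475 (0.443 to 0.509) for models past the stem-loop, 0.501 (0.421 to 0.594) for those that end near it, and 0.481 (0.428 to 0.540) where none was found. In SW780 the folds were 0.601 (0.528 to 0.683), 0.649 (0.480 to 0.869) and 0.898 (0.753 to 1.07). The last class is mostly H1-2 and H2BC12. In UMUC3 H2BC5 held 179 and 110 of the 325 and 232 reads of the class that ends near the stem-loop, so that class rests largely on it.

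Set beside the histone genes, the genes that copy DNA lay mostly on the other side of 0. In UMUC3 31 of 35 DNA replication genes had a log2 ratio above 0 (median 0.49) and 3 were called higher. Over all genes 2.39% were called higher in UMUC3. Among all genes with 10 or more reads, a wider set, 54.6% in UMUC3 and 49.2% in SW780 had a fold above 1. The 3 genes called higher are named next. These were CCNE2, a cyclin E (292 and 1280 reads, 3.07-fold), CLSPN, a replication checkpoint adaptor (621 and 2242 reads, 2.53-fold), and E2F2, a cell cycle transcription factor (277 and 843 reads, 2.13-fold). GINS3, a subunit of the replicative helicase (281 and 796 reads, 1.99-fold), and FEN1, the flap endonuclease (912 and 2519 reads, 1.94-fold), lay just short of a call, each at a log2 ratio of 0.94. In SW780 32 of 35 lay above 0 at a median of 0.15, led by GINS3 (1.55-fold) and E2F1 (1.46-fold). None of the 35 was called in SW780 in either direction. Mitosis genes had medians of -0.14 in UMUC3 (5 of 18 above 0, PLK1 at 0.749-fold, CDC20 at 0.763-fold, AURKA at 1.32-fold) and 0.18 in SW780 (17 of 18 above 0, KIF20A at 1.35-fold).

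The list of genes that make and destroy histone mRNA had a median near that of all genes, with single genes well above it in UMUC3. There 30 processing and decay genes had a median of 0.10 (20 above 0), with 1 called higher, CCNE2, which is on both lists. That count is near the share over all genes (2.39%). SLBP, which binds the stem-loop, had 977 and 1797 reads (42.8 and 55.2 CPM), 1.29-fold, and NPAT had 1111 and 1919 reads (48.7 and 59.0 CPM), 1.21-fold. CCNE1 was at 1.81-fold, CDK2 at 1.55-fold, and CASP8AP2 (FLASH), a part of the complex that cuts the mRNA's end, at 1.54-fold. In SW780 the median was -0.04 (11 of 30 above 0). SLBP had 5330 and 4290 reads (156 and 168 CPM), 1.07-fold, and NPAT 1974 and 1548 reads, 1.05-fold. NCBP2, a cap-binding protein, was at 0.730-fold and LSM10, a subunit of the U7 snRNP, at 0.788-fold. SLBP and NPAT mRNA had folds above 1 in both lines, but that of NPAT in SW780 was within counting error of 1. Any part of these factors in the members' lower level was not tested.

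Histone chaperones, which carry histones to DNA, had medians of 0.18 in UMUC3 and 0.06 in SW780, and 0 of 21 were called in either line. CHAF1A and CHAF1B, subunits of chromatin assembly factor 1, were at 1.60-fold and 1.62-fold in UMUC3 and IPO4, a histone importin, at 0.591-fold. ASF1B was at 1.31-fold in SW780. Histone variants, whose mRNAs are polyadenylated and made outside S phase too, had medians of -0.08 in UMUC3 (3 of 11 above 0) and 0.12 in SW780 (10 of 12 above 0). H2AX had 769 and 1691 reads in UMUC3, 1.54-fold, and 1703 and 2240 in SW780, 1.75-fold. Its mRNA exists in a stem-loop and a polyadenylated form, which a gene count does not separate. H2AJ was at 0.641-fold and CENPA at 0.720-fold in UMUC3. CENPA was at 1.18-fold in SW780.

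Other RNAs without a poly(A) tail could be looked at in UMUC3 only, where 27 of 35 on the list had a row. Their summed level was 38.4 CPM in shNT and 14.04 CPM in shSCD1, a fold of 0.366 (0.326 to 0.410), below the interval of the histones. RN7SL1 (228 and 82 reads, fold 0.252) and RN7SL2 (448 and 117 reads, fold 0.183), copies of the RNA of the signal recognition particle, were both called lower and made up 77.2% of the list's reads in shNT and 43.5% in shSCD1. The other 25 together had 8.76 and 7.93 CPM, a fold of 0.905 (0.749 to 1.09). RN7SK had 18 and 30 reads (fold 1.17, 0.631 to 2.23), SNORD17 78 and 110 (fold 0.989, 0.733 to 1.34), SNORA73B 30 and 51 (fold 1.19, 0.745 to 1.94), RPPH1 8 and 12, and RMRP 8 and 3. Of the 8 others with 10 or more reads, 6 had an interval that holds 1 and 2 had an interval below 1. The 2 were SCARNA13 (21 and 14 reads, fold 0.467, 0.220 to 0.964) and SNORD3A (10 reads and 1 read, fold 0.0701, 0.00162 to 0.493). Among all UMUC3 genes with 10 or more reads, 25.1% had an interval below 1, so this count is near that share. SCARNA13 and SNORD3A were picked out after their values were seen. A difference between the 2 libraries in how well untailed RNA was captured was not tested, and for SW780 no such RNA has a row.

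**Figure D5:**
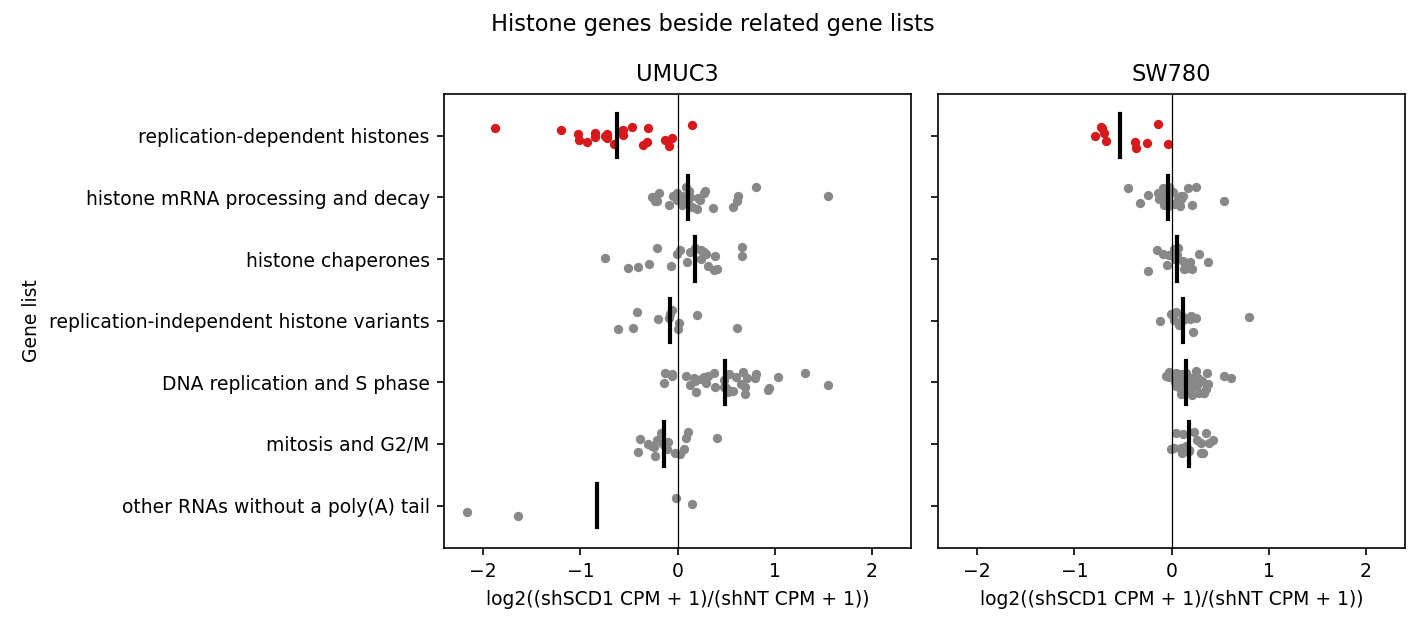
log2((shSCD1 CPM + 1)/(shNT CPM + 1)) of each gene with a mean of at least 1 CPM, in UMUC3 (left) and SW780 (right); red points are the histone members, grey points the genes of 6 related lists, and black bars the medians. The members lie mostly left of 0 in both lines (medians -0.62 and -0.53), the DNA replication genes mostly right of it (0.49 and 0.15), and RN7SL1 and RN7SL2 are the 2 leftmost points of the lowest row.

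In the authors' deposited table for UMUC3, the GFOLD value, a fold change shrunk for counting error, was below 0 for 30 of 61 members and above 0 for 0, against 20% and 12.7% of all rows. The most negative values were those of H2AC6 (-1.85), H1-3 (-1.49), H2BC17 (-1.37) and H1-2 (-1.11), the lowest 4 of that list. In the authors' deposited table for SW780 it was below 0 for 5 of 65 members (H2AC6, H2BC5, H4C14, H4C15 and H4C16) and above 0 for 2 (H2BC4 and H2BC9), against 19.2% and 20.6% of all rows. The deposited values lean to one side at low counts. The authors' log2 fold change was -0.593 in UMUC3 and 0.420 in SW780 for members with 0 reads in both libraries. The 30 include H2AC16, with 4 and 6 reads and a fold of 1.05. In SW780 H2BC4 and H2BC9 had 17 and 15 reads, and both intervals hold 1.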

How the data were processed

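RNA from UMUC3 and SW780 cells, shNT and shSCD1, had been sequenced as 4 libraries, 1 per group. The genome build is hg38 per the submitters' processing notes; the sources used here name no aligner, counter, annotation or use of strand. The columns headed RPKM in the deposited tables hold a signal in which each library sums to 50000000 and gene length plays no part. Low values were whole multiples of 1 unit per library, so whole reads were recovered (100% of values up to 20 reads and at least 99.9% of all values were whole within 0.1). The authors' log2 fold change and GFOLD value were read from the deposited tables per the file headers; the deposited false discovery rate, a p-value type column, holds 1 throughout and entered no result.

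CPM, log2 ratios with a pseudocount of 1 CPM and exact Clopper-Pearson intervals were computed in Python 3.11.15 (pandas 2.3.3, scipy 1.17.1). A floor of 3 reads is 0.0880 to 0.131 CPM. Intervals and floors cover counting error only, since reads that carry no molecular identifier can stem from 1 molecule. The count test on recovered reads used edgeR 4.0.16, and median-of-ratios factors came from DESeq2 1.42.0. The planned tests assumed another unit, and the recovered reads took its place. The computations were tested on simulated data. Gene coordinates and transcripts are those of GENCODE 29, promoter windows those of RefSeq GRCh38.p14.

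Members and lists were chosen with earlier results of these data known. Named are the 3 members of each family with the highest mean CPM per kb and 10 or more reads, members called, the 3 highest and 3 lowest folds among members with 100 or more reads, those nearest 10 reads, and up to 4 genes per related list by size of the log2 ratio. H3-7, whose older symbol marks a pseudogene, was left out. Alternatives varied the pseudocount, filter, scaling and size rule. The split by transcript end, the sums of copies with shared sequence and a class of single-exon genes were added after the data were seen. The head-to-head pairs and the family sums without 1 member were also chosen then.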

Additional observations from a re-analysis of the deposited data

Results flagged for a closer look

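One value outside the members was flagged, by a rule that picks histone pseudogenes whose interval lies above 1. Among all UMUC3 genes with 10 or more reads, 30.5% had such an interval. The pseudogene H2BC19P, left out by the rule on pseudogenes, had 117 reads in UMUC3 shNT and 258 in shSCD1, a fold of 1.55 (1.24 to 1.94), while 0 of the 42 members with 10 or more reads had an interval above 1. A second H2B pseudogene, H2BC20P, had 359 and 561 reads, a fold of 1.10 (0.958 to 1.25).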

How the results depend on the processing

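No result reversed its direction under any alternative run. Of the summary values, 76 stayed near the value reported, while 18 moved and are given here. Near means within 1.5 times for counts and within 0.1 for median log2 ratios. For summed folds it means inside the counting interval of the value reported. The number of UMUC3 members called lower was 4 and became 9 with a pseudocount of 0.1 CPM, 12 with the authors' log2 fold change and 11 with a 1.5-fold size rule. For SW780 it was 0 and became 4, 4 and 5. The UMUC3 median log2 ratio of -0.62 was -0.91 and -0.76 with pseudocounts of 0.1 and 0.5 CPM, -0.20 with no filter, -0.43 with 10 or more reads and -1.03 with the authors' log2 fold change. The SW780 median of -0.53 was -0.74, -0.64, -0.050, -0.17 and -0.75 in that order. A larger pseudocount or more low genes draws these ratios towards 0 by construction. The summed UMUC3 fold was 0.554 without H2AC6. With 100 or more reads in both lines, 8 of 8 members had a fold below 1 in each. H2BC5 in UMUC3 fell just short of a call, at -0.9995, without mitochondrial transcripts, and in SW780 it passed at -1.14 (0.1 CPM) and -1.19 (authors' log2 fold change). TMM scaling shifted log2 folds without a pseudocount by -0.04 in UMUC3 and 0.0031 in SW780. The labels number no replicates, so no pairing by replicate was made; the edgeR fit pairs the libraries within each line. Members under 10 reads (19 in UMUC3, 41 in SW780) have too few reads for a reading of each alone.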

Other observations

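Single-exon protein-coding genes that are not replication-dependent histones did not share the lower folds. In UMUC3 229 of them had 10 or more reads, 40.6% had a fold below 1 and the median fold was 1.05. In SW780 there were 261, with 44.1% below 1 and a median fold of 1.03. This class was chosen after the data were seen.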
